A study of Homo sapiens with 12 samples.

Results

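The histone genes examined here were every row of the deposited expression table whose symbol begins with HIST and a digit, H1F, H2AF or H3F. These are older symbols, and 23 of the 11529 rows carry one. Of these, 12 are clustered HIST genes and 11 are genes of replacement histones, the name used here for all members outside the HIST clusters. The clustered rows hold 2 genes of linker histone H1 (HIST1H1C and HIST1H1E), 4 of H2A (HIST1H2AC, HIST1H2AM, HIST2H2AC and HIST3H2A) and 6 of H2B (HIST1H2BC, HIST1H2BD, HIST1H2BH, HIST1H2BJ, HIST1H2BK and HIST2H2BA). The replacement rows are H1F0 and H1FX of the H1 family, H2AFJ, H2AFV, H2AFX, H2AFY, H2AFY2 and H2AFZ of the H2A family, and H3F3A, H3F3AP4 and H3F3B of the H3 family. HIST2H2BA and H3F3AP4 are annotated as transcribed pseudogenes in RefSeq, and GENCODE gives H3F3AP4 as a processed pseudogene.

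RNA was sequenced from MDA-MB-468 and from MDA-MB-231, 2 cell lines of triple-negative breast cancer, each with 3 control samples labelled as wild type and 3 samples in which SMARCA4 was knocked out (KO), 12 samples in all. The KO cells had received Cas9 and an sgRNA against SMARCA4 by lentivirus and were selected with puromycin without picking clones, so that a KO sample is a mixed population. The study made control cells with a nontargeting vector next to unedited cells, and the labels, which give the genotype of the controls as wild type and call them controls in the sample descriptions, do not say which of these were sequenced. SMARCA4, the ATPase also called BRG1 that drives SWI/SNF nucleosome remodelling, had a mean of 98.5 ± 2.44 FPKM (SD, n = 3) in control and 43.6 ± 4.01 FPKM in KO samples of MDA-MB-468, and of 68.7 ± 2.46 and 22.5 ± 1.42 FPKM in those of MDA-MB-231.

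Nucleosomes are built of the core histones H2A, H2B, H3 and H4, and linker histone H1 binds the DNA between them. Most core histone protein is made in S phase from the clustered genes, which lack introns and whose mRNAs end in a conserved stem-loop, bound by SLBP, in place of a poly(A) tail. Replacement histones are made outside S phase as well, mostly from single genes with introns and polyadenylated mRNAs. The libraries were made from poly(A)-selected RNA, so that a clustered gene is captured mainly where part of its mRNA carries a tail.

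RefSeq annotates 69 protein-coding genes with a HIST symbol, of which 11 are rows of the table. The rows cover 2 of 6 H1 genes, 4 of 16 H2A genes, 5 of 18 H2B genes, 0 of 14 H3 genes and 0 of 15 H4 genes. Before deposition the authors removed genes whose FPKM had a low average or a low spread, so that the covered genes are those with enough signal and variation in these samples, and no statement below extends to H3 or H4 genes of the clusters. In GENCODE on GRCh37, 9 of the 12 clustered rows lie on chromosome 6 between 26055968 and 27860963 and 3 on chromosome 1. The 11 replacement genes lie on 11 different chromosomes.

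The stem-loop that marks clustered histone mRNAs was searched for in the 200 bases after the stop codon of each gene in GRCh37. A match was a run of 16 bases with 6 paired bases on each side of a loop of 4, holding the bases that histone stem-loops share. All 11 clustered rows with a coding transcript held a match, against 71 of 19735 protein-coding genes (0.36%). Of the 71, only 6 were not histone genes. As the pattern was that of known histone stem-loops, this contrast is a check of the annotation and no result of these samples. Of the replacement genes, H2AFX alone held one. The stem was the same in the 11 clustered genes and the loop differed, ending in C in 6 genes, in A in 4 (HIST1H2BC, HIST1H2BD, HIST1H2BJ and HIST1H2BK) and in T in 1 (HIST2H2AC). The sites shown are those of HIST3H2A, of the clustered gene with the highest level, of the gene with the third kind of loop and of H2AFX, with the loop in capitals.
HIST3H2A: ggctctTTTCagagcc
HIST1H2BK: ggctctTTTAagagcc
HIST2H2AC: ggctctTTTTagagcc
H2AFX: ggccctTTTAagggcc

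The site of HIST3H2A lies at chr1:228645070-228645085 on the minus strand, 41 bases after the stop codon. HIST3H2A, HIST1H2AC, HIST1H2BC, HIST1H2BD and HIST1H2BJ, 5 of the 11, also have an annotated transcript that ends over 100 bases past the stem-loop. For HIST1H2BK and HIST1H1C, the clustered genes with the highest mean FPKM over the 12 samples, the annotation holds 1 transcript each, which ends within 100 bases of the stem-loop. Both annotated transcripts of H2AFX end past it. The table gives 1 value per gene, so that mRNAs with and without a tail cannot be told apart in it.

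Promoters were read from RefSeq for 20 of the 23 genes, as the 250 bases before and 50 after a start site in GRCh38.p14. Histone promoters are known for the CCAAT box, bound by NF-Y, the TATA box, and in H2A and H2B genes an octamer bound by OCT1. CCAAT, on either strand, stood in the promoters of 11 of 11 clustered and 7 of 9 replacement genes, against 34.61% of all 35116 promoters of this length. TATAAA stood in 8 of 11 and 4 of 9, against 11.53% of all, and the octamer ATTTGCAT in 7 of 11 and 1 of 9 (H3F3B), against 1.77%. Some genes have several start sites, and a gene was counted where any of its promoters held the motif. The shares of all promoters count each promoter singly, so that a gene with several promoters had more occasions to match. The promoters of HIST3H2A (chr1:228457824-228458123, minus strand) and HIST1H2BK (chr6:27146809-27147108, minus strand) are shown as the clustered gene that passed the test on SMARCA4 KO and the one with the highest level, with the 3 motifs in capitals wherever they stand on either strand. In HIST1H2BK the first run of capitals is TATAAA and its reverse complement overlapping.
HIST3H2A: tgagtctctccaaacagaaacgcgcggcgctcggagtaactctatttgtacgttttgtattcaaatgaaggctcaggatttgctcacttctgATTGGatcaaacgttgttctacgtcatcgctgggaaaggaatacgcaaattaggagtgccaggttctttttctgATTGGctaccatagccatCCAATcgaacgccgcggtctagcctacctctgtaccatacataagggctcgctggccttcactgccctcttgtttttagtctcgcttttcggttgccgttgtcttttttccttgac
HIST1H2BK: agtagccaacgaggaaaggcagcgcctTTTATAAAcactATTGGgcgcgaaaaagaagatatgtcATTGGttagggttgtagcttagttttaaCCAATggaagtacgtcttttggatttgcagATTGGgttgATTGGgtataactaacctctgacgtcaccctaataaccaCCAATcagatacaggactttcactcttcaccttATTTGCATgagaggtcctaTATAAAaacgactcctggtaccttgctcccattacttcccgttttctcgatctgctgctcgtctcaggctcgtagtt

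HIST3H2A and HIST1H2BK differed in these letters. The HIST3H2A promoter held CCAAT or its reverse complement 3 times, 158, 84 and 66 bases before the start, and neither of the other motifs. That of HIST1H2BK held 6 CCAAT, 3 TATAAA and 1 ATTTGCAT. The HIST3H2A promoter shares 271 of its bases with the promoter of the H2B gene HIST3H2BB, which starts 230 bases away on the opposite strand and is not a row of the table. A match describes the letters of the reference and not binding in these cells. Genes of 1 histone family are near-identical in their coding parts, so reads may be divided among them, with HIST genes outside the table included, and values of single clustered genes carry that uncertainty. HIST1H2BC and HIST1H2AM also overlap other protein-coding genes, and HIST1H2BD overlaps the pseudogene LARP1P1 on the same strand. HIST1H1E, HIST1H2AC, HIST1H2BC, HIST1H2BD and HIST1H2BH overlap annotated genes without a symbol.

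The deposited values are log2(FPKM + 1), and FPKM, fragments scaled to transcript length and library size, were recovered from them to compare levels between genes. The read depth behind the values is unknown, so that no counting error is given. Nothing in the labels says that replicates came from separate cultures, and p-values then measure only the spread between these samples, which may be technical. Summed FPKM per sample ran from 673808 to 715537 over all rows. Of 16 markers of the lines, 15 were called between the controls, 9 higher and 6 lower in MDA-MB-468. VIM, CAV1 and AXL, of mesenchymal cells, and RB1 and SMAD4, which MDA-MB-468 has lost, were among those lower there, and the keratins, EPCAM, CDH1, EGFR and CDKN2A were among those higher. CD44, also a mesenchymal marker, was higher in MDA-MB-468 (log2 fold change 0.89), and ERBB2 was not called (-0.05). Of 10 markers of leukocytes, fibroblasts and endothelium, the monocyte marker CD14 was the 1 row of the table. In bulk RNA, fewer cells with a transcript and less RNA per cell cannot be told apart.

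In control MDA-MB-468 cells the 10 highest histone genes were all replacement genes. H3F3B and H2AFZ led, with means of 568 and 517 FPKM and overlapping samples, followed by H2AFY and H2AFV, both at 249 FPKM and also overlapping, and by H3F3A at 158 FPKM. HIST1H2BK was the highest clustered gene with 47.7 FPKM, and HIST1H2BD, HIST1H2AC and HIST1H1C followed at 19.9, 19.6 and 16.6 FPKM with overlapping neighbours. HIST3H2A lay at 9.51 FPKM, and the remaining clustered rows lay between 0.707 (HIST1H1E) and 3.74 FPKM (HIST1H2BC), except HIST2H2BA, which was listed at 0. In control MDA-MB-231 cells H2AFZ (484 FPKM) and H3F3B (455 FPKM) led and again overlapped, but HIST1H2BK came sixth with 127 FPKM, above H1F0 and H3F3A, and HIST1H1C ninth with 62.1 FPKM. The summed FPKM of the clustered rows was 126 ± 19.0 in control MDA-MB-468 and 252 ± 15.7 in control MDA-MB-231 samples (SD, n = 3), and that of the replacement rows 2154 ± 98.0 and 1825 ± 98.1. A summed level over rows chosen by symbol was not tested.

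**Figure D1:**
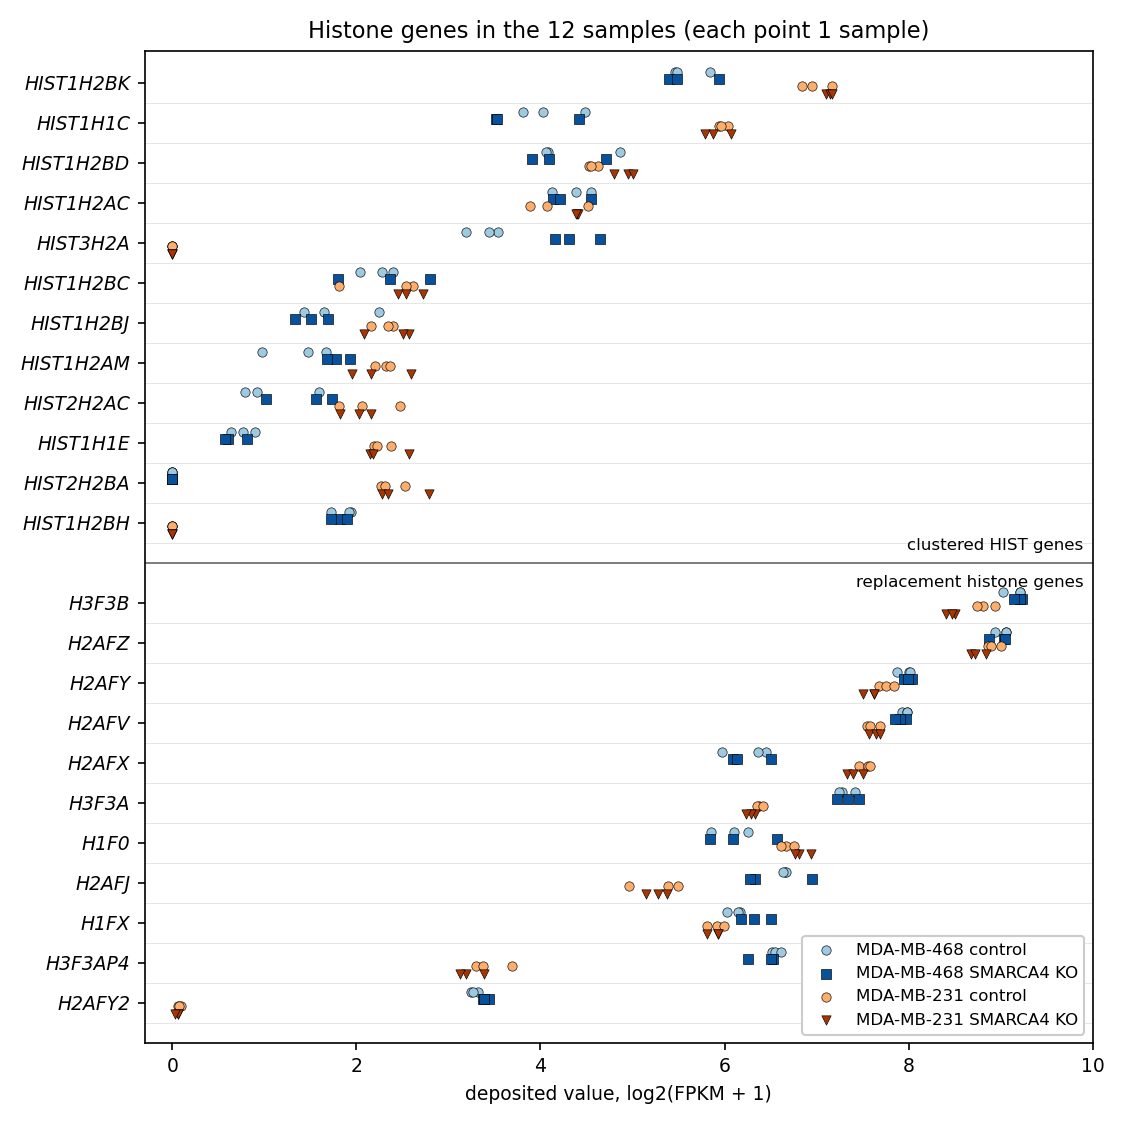
Deposited log2(FPKM + 1) values of the 23 histone genes (rows) in each of the 12 samples (points), coloured by cell line and genotype. HIST3H2A and HIST1H2BH were listed at 0 in the 6 MDA-MB-231 samples and HIST2H2BA in the 6 MDA-MB-468 samples, and H3F3B and H2AFZ had the highest values in each group.

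The comparison of control MDA-MB-468 with control MDA-MB-231 cells, 3 samples each, asked how far the histone genes differ between the lines without SMARCA4 KO. The clustered genes HIST1H1C and HIST1H2BK were called lower in MDA-MB-468. The other clustered calls fell on rows that could pass the authors' filter only through 1 line or the difference between the lines. Replacement genes were called in both directions. A gene was called at a limma adjusted p under 0.05 over all rows and an absolute log2 fold change over 0.5, which in this comparison holds for 64.1% of all rows, 32.7% higher and 31.4% lower in MDA-MB-468. Of the 12 clustered rows 9 were called, 2 higher and 7 lower, and of the 11 replacement rows 6 were called, 4 higher and 2 lower. Control samples of the lines did not overlap in 2 clustered rows that were higher and 6 that were lower in MDA-MB-468, and in 8 replacement rows that were higher and 2 that were lower, against 43.2% higher and 42.3% lower of all rows. The median log2 fold change was -0.73 over the clustered and 0.32 over the replacement rows, against 0.01 over all rows. These counts hold 4 rows at or near 0 throughout 1 line (HIST3H2A, HIST1H2BH, HIST2H2BA and H2AFY2), which could pass the authors' filter only through the other line. Without them 6 of 9 clustered rows were called, all 6 lower in MDA-MB-468, and 5 of 10 replacement rows, 3 higher and 2 lower, with medians of -0.93 and 0.26. This does not undo the authors' filter on SD. Of the called clustered rows, HIST1H1E, HIST1H2AM, HIST2H2AC and HIST1H2BJ had SDs of 1.13 to 1.74 FPKM over all samples. They could pass that filter only through the difference between the lines. Their calls and the clustered median therefore cannot show how common such differences are. HIST1H1C and HIST1H2BK did not depend on it.

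Among the linker histones of the clusters, HIST1H1C (H1.2) had 21.4, 15.3 and 13.1 FPKM in the control samples of MDA-MB-468 and 60.4, 64.5 and 61.4 FPKM in those of MDA-MB-231. All MDA-MB-468 samples lay below all MDA-MB-231 samples, and the log2 fold change was -1.87 (SE 0.16, limma adjusted p = 1.23e-05). HIST1H1E (H1.4) had a mean of 0.707 FPKM against 3.81 FPKM, 18.6% of the level in MDA-MB-231. All its MDA-MB-468 values lay below the smallest mean in the table (1.07 FPKM), so that it was kept only through its higher level in MDA-MB-231. No p-value is given for that difference.

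The H2B gene HIST1H2BK had 56.6, 42.9 and 43.6 FPKM in control MDA-MB-468 and 143, 123 and 114 FPKM in control MDA-MB-231 samples, with no overlap. Its log2 fold change was -1.39 (SE 0.13, limma adjusted p = 2.22e-05), or 37.7% of the MDA-MB-231 level in FPKM. HIST1H2BD and HIST1H2BC overlapped between the lines and were not called. HIST1H2BJ was called with a log2 fold change of -0.52 although its samples overlapped, and leaving out a sample ended that call in 5 of 6 cases. It could pass the authors' filter on SD only through the difference between the lines, so that no p-value is given.

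Of the H2A genes, HIST1H2AC had 22.5, 16.5 and 19.8 FPKM in control MDA-MB-468 and 15.8, 21.9 and 13.8 FPKM in control MDA-MB-231 samples. These values overlapped, and the log2 fold change of 0.20 had an interval from -0.21 to 0.60 (95%; limma adjusted p = 0.319). HIST1H2AM and HIST2H2AC were lower in MDA-MB-468, with log2 fold changes of -0.93 and -1.01. The values of HIST1H2AM, HIST2H2AC, HIST1H2BJ and HIST1H1E lay below 6 FPKM in all samples, where the added 1 shortens a fold change on the log2 scale. As these rows passed the authors' filter on SD only through the difference between the lines, their calls are not independent of that filter.

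3 clustered rows, chosen after their values were seen, were listed at 0 throughout 1 line. HIST3H2A was listed at 0 in all 6 MDA-MB-231 samples and stood between 8.10 and 24.0 FPKM in MDA-MB-468 samples. HIST1H2BH was likewise listed at 0 in MDA-MB-231, with a mean of 2.64 ± 0.293 FPKM (SD, n = 3) in control MDA-MB-468 samples. HIST2H2BA had the reverse pattern, with 4.18 ± 0.528 FPKM in control MDA-MB-231 samples and 0 in the 6 MDA-MB-468 samples. No fold change is given against a value listed at 0, which in a table without counts can be a failed estimate. Over the whole table, 103 rows were listed at 0 in all MDA-MB-231 and 108 in all MDA-MB-468 samples.

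**Figure D2:**
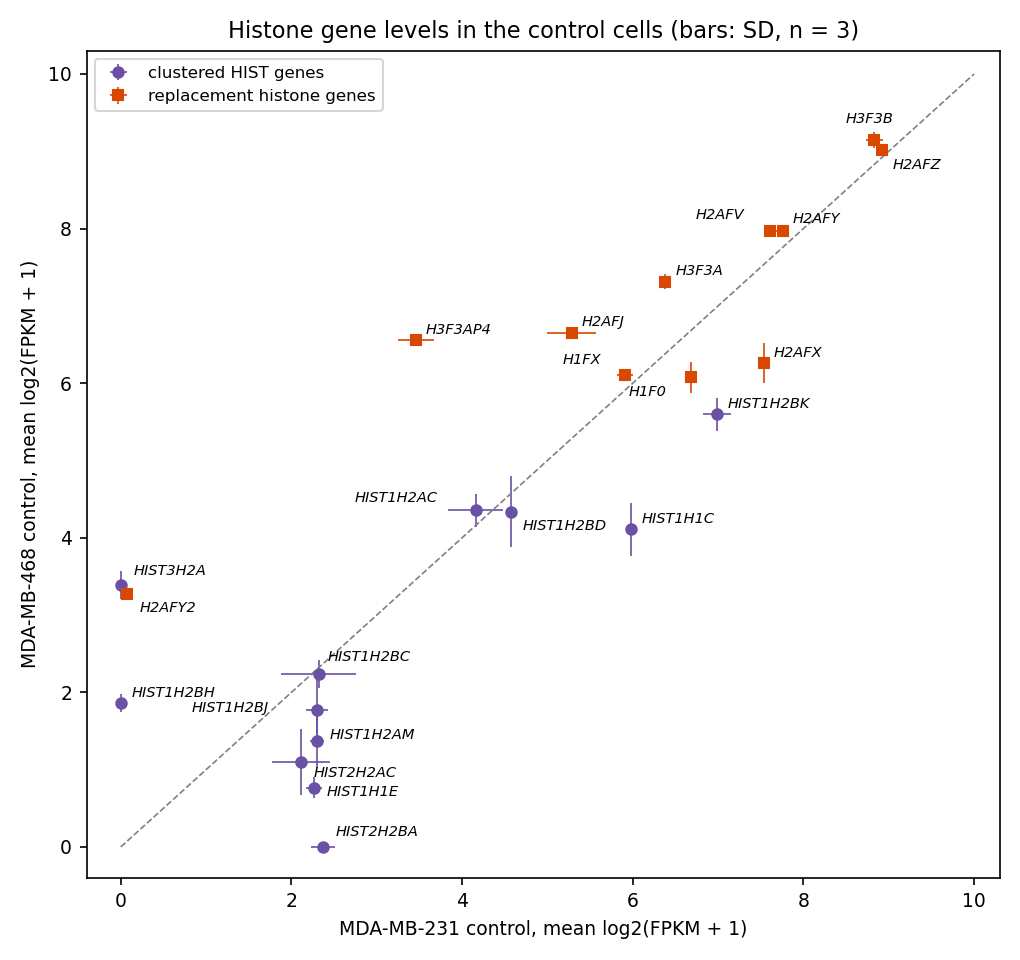
Mean log2(FPKM + 1) of each histone gene in control MDA-MB-231 (x axis) and control MDA-MB-468 cells (y axis), bars showing the SD (n = 3) and the dashed line equal values. Of the clustered genes (circles) 9 of 12 lie below the line, and of the replacement genes (squares) 9 of 11 lie above it, by less than the fold limit for H1FX, H2AFV, H2AFY, H2AFZ and H3F3B. Below the line, HIST1H1E, HIST1H2AM, HIST2H2AC, HIST1H2BJ and HIST2H2BA could pass the authors' filter only through MDA-MB-231 or the difference between the lines.

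Of the replacement H2A genes, H2AFZ and H2AFV encode forms of H2A.Z, which marks nucleosomes next to start sites. H2AFZ had 490, 530 and 531 FPKM in control MDA-MB-468 and 466, 475 and 512 FPKM in control MDA-MB-231 samples, which overlapped (log2 fold change 0.10, limma adjusted p = 0.255). H2AFV had means of 249 ± 5.26 and 194 ± 10.2 FPKM (SD, n = 3), a difference of 0.36 on the log2 scale that passed the adjusted p and not the fold limit. MacroH2A, a histone with a large extra domain that is enriched on silent chromatin, is encoded by H2AFY and H2AFY2. H2AFY was also within the fold limit (means of 249 and 215 FPKM, log2 fold change 0.21). H2AFY2 was at 8.70 ± 0.297 FPKM in control MDA-MB-468 cells and near 0 in control MDA-MB-231 cells, at 0.0533 ± 0.0153 FPKM. It could pass the authors' filter only through MDA-MB-468, so that no fold change or p-value is given for this difference.

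H2AFX, whose product is phosphorylated at DNA breaks, was called lower in MDA-MB-468. It had 76.5 ± 13.1 FPKM in control MDA-MB-468 and 184 ± 8.12 FPKM in control MDA-MB-231 cells, a log2 fold change of -1.27 (SE 0.13, limma adjusted p = 3.28e-05). It is also the replacement gene with a stem-loop. H2AFJ, an H2A gene outside the clusters whose product gathers in senescent cells, had 99.7 ± 1.07 against 38.4 ± 7.29 FPKM (SD, n = 3) and was called higher in MDA-MB-468 with a log2 fold change of 1.37. HIST1H2AC, HIST1H2BC and HIST1H2BD carry a stem-loop as H2AFX does and were not called. HIST3H2A and HIST1H2BH carry it too and were listed at 0 in MDA-MB-231, so that no direction is read from them. The part of the stem-loop in the differences between the lines was not tested.

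H3F3A and H3F3B encode the same protein, H3.3, the H3 form that is deposited outside replication. H3F3B had 522, 590 and 592 FPKM in control MDA-MB-468 and 445, 429 and 491 FPKM in control MDA-MB-231 samples. Its samples did not overlap, and the log2 fold change of 0.32 (SE 0.09, limma adjusted p = 0.00893) was below the fold limit. H3F3A was called, with 158 ± 10.5 against 82.5 ± 2.00 FPKM (log2 fold change 0.93, SE 0.07). The pseudogene H3F3AP4 showed 93.4 ± 3.05 against 10.1 ± 1.66 FPKM and a log2 fold change of 3.10. H3F3AP4 derives from H3F3A, and reads of near-identical copies may be divided between the rows by the authors' counting, so both values are uncertain. H3F3AP4 also overlaps annotated lncRNA genes on the same strand.

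The linker histones outside the clusters differed less. H1F0 (H1.0), which gathers in cells that divide little, had 75.4, 67.9 and 57.0 FPKM in control MDA-MB-468 and 101, 97.2 and 107 FPKM in control MDA-MB-231 samples, with no overlap (log2 fold change -0.61, SE 0.11, limma adjusted p = 9.78e-04). H1FX had 68.2 ± 3.60 against 59.1 ± 3.84 FPKM and a log2 fold change of 0.20, below the fold limit.

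SMARCA4 KO was compared with control in MDA-MB-468 cells to ask which histone genes followed the loss of the remodeller. HIST3H2A rose and was the only member called, in a comparison that called 2.14% of all rows (1.33% higher, 0.815% lower). 1 of 12 clustered and 0 of 11 replacement rows passed. At an unadjusted limma p under 0.05 the counts were 1 and 1, the latter being H2AFY2 with a log2 fold change of 0.12. HIST3H2A was also the only member to pass the adjusted p alone, which 3.75% of all rows passed. The median log2 fold change was -0.02 over the clustered and 0.03 over the replacement rows, against 0.02 over all rows.

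HIST3H2A, an H2A gene of the small histone cluster on chromosome 1, had 8.10, 10.6 and 9.83 FPKM in the control samples of replicates 1, 2 and 3 and 24.0, 16.9 and 18.8 FPKM in the KO samples of MDA-MB-468. Every KO sample was above every control sample. The mean in KO was 209% of that in control, the log2 fold change was 0.98 (SE 0.15, interval 0.60 to 1.36 at 95%) and the limma adjusted p was 0.0361. In MDA-MB-468 cells samples with the same replicate number deviated together, and once that number was a block the limma adjusted p rose to 0.082, so that the call was lost. The sample descriptions also carry a p number, whose meaning is not stated, and it runs from 26 to 28 in the controls and from 25 to 27 in the KO samples of MDA-MB-468, so that it ties other samples than the replicate number does. With the p number as a block, which leaves 2 pairs, the log2 fold change was 0.87 and the limma adjusted p 0.131. The call also ended when control replicate 1, 2 or 3 or KO replicate 2 or 3 was left out, with log2 fold changes between 0.85 and 1.09 over the samples left out and adjusted p up to 0.116.

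HIST3H2A is annotated with transcripts that end far past its stem-loop, so its reads may not all come from the coding part. The span of the gene overlaps a ribosomal protein pseudogene on the same strand, RPL23AP15. Only the bounds of the genes were compared, so that an overlap of exons is not shown.

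The highest clustered genes showed no such step. HIST1H1C had 20.3, 10.5 and 10.6 FPKM in KO samples of MDA-MB-468, HIST1H2AC 22.4, 16.6 and 17.5 FPKM, and HIST1H2BK 60.3, 41.2 and 43.7 FPKM. Each overlapped its control values, and the log2 fold changes were -0.29, -0.05 and 0.01, with intervals from -1.04 to 0.46, from -0.43 to 0.32 and from -0.43 to 0.46. In these genes the spread within a group was larger than the difference between groups. Replicate 1 was the highest sample in both control and KO for 4 of the 12 clustered rows (HIST1H1C, HIST1H2AC, HIST1H2BD and HIST1H2BK), which is 33.3%, against 18.7% of all rows and 1 of 11 replacement rows (H1F0). The summed FPKM of 48 S phase and replication genes was 2277 in control replicate 1 and 2741 to 2781 in the other controls, and 2576 in KO replicate 1 and 2642 to 2749 in the other KO samples. The part of replicate 1 in the histone values was not tested.

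Among replacement genes of MDA-MB-468 the KO means stayed close to the controls. H3F3B had 601, 589 and 565 FPKM in KO samples and H2AFZ 525, 529 and 466 FPKM, both overlapping the control values, with log2 fold changes of 0.05 (interval -0.12 to 0.21) and -0.03 (interval -0.20 to 0.14). H1F0 had 94.3, 67.0 and 56.4 FPKM, with a log2 fold change of 0.09 and an interval from -0.42 to 0.61. With the replicate block the limma adjusted p of H3F3B, H2AFZ and H1F0 was 0.725, 0.827 and 0.554, and the SE of H1F0 fell from 0.21 to 0.09. Mean KO levels were 239 ± 9.75 FPKM for H2AFV, 254 ± 8.15 for H2AFY, 9.55 ± 0.291 for H2AFY2 and 75.5 ± 12.4 for H2AFX (SD, n = 3). For H2AFJ, H3F3A, H3F3AP4 and H1FX they were 92.9, 162, 85.4 and 80.1 FPKM, and the KO samples of H2AFJ spread from 76.6 to 123 FPKM around control values of 98.5 to 100.4 FPKM. Low clustered rows had KO means of 4.21 (HIST1H2BC), 2.53 (HIST1H2BH), 2.49 (HIST1H2AM), 1.87 (HIST1H2BJ), 1.77 (HIST2H2AC) and 0.587 FPKM (HIST1H1E). Over both classes the KO samples lay wholly above the controls for HIST1H2AM, HIST3H2A, H1FX and H2AFY2, 4 of 23 rows, and wholly below for 0 rows, against 17.5% and 13.5% of all rows.

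**Figure D3:**
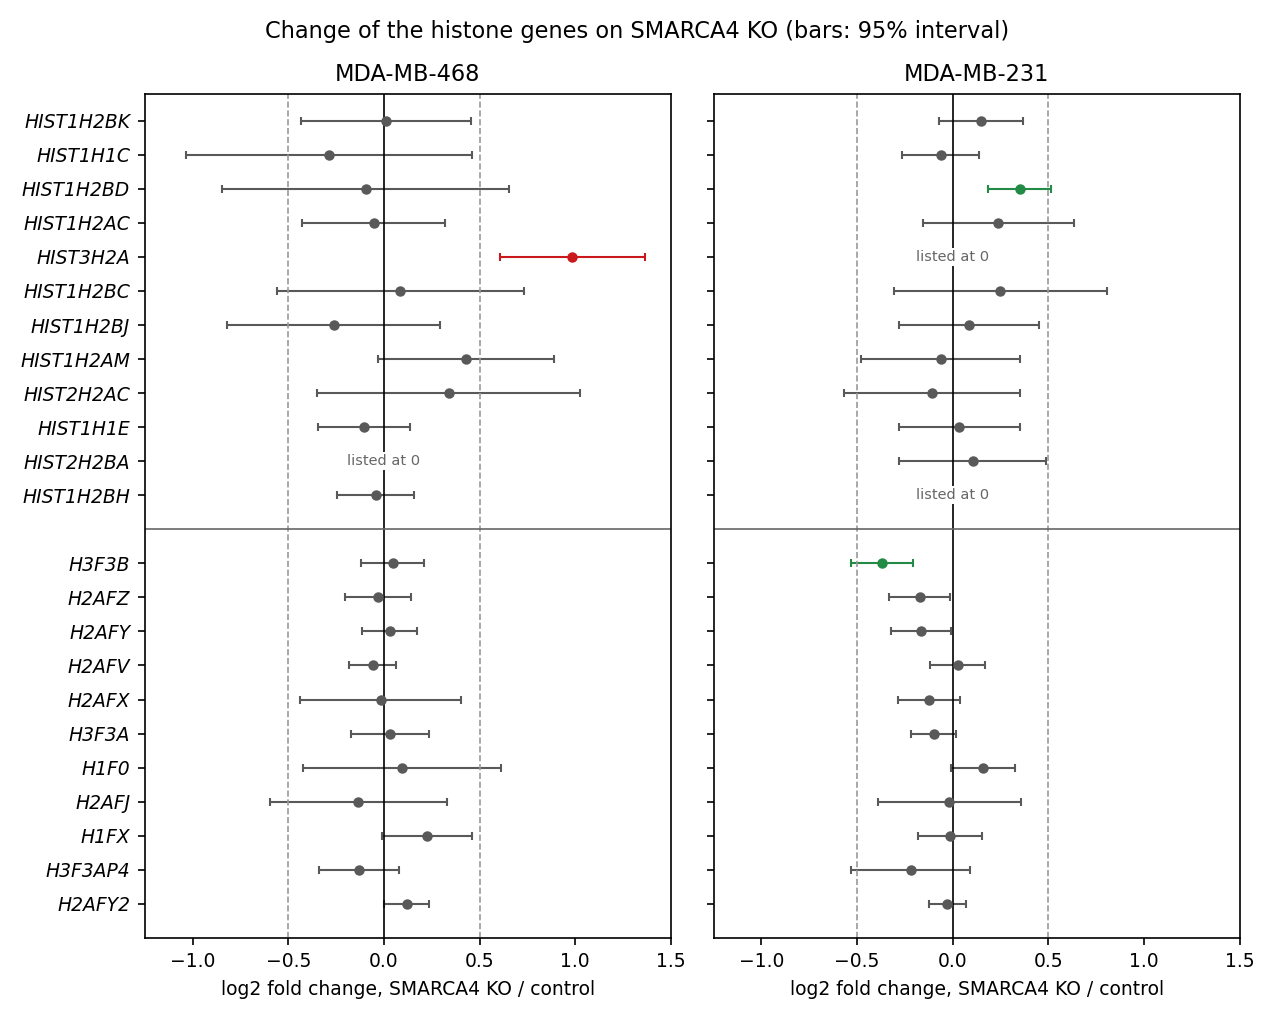
Log2 fold change of each histone gene on SMARCA4 KO in MDA-MB-468 (left) and MDA-MB-231 (right), with 95% limma intervals and dashed lines at the fold limit of 0.5. HIST3H2A in MDA-MB-468 (red) passed both limits, and HIST1H2BD and H3F3B in MDA-MB-231 (green) passed the adjusted p alone.

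In MDA-MB-231 cells no histone gene was called on SMARCA4 KO: 0 of 12 clustered and 0 of 11 replacement rows by limma, where 3.70% of all rows were called (2.39% higher, 1.31% lower). At an unadjusted p under 0.05 there were 1 clustered and 3 replacement rows. Of the 10 clustered rows above 0, 7 had a higher mean in KO, and of the 11 replacement rows 9 had a lower one, counts that became 5 and 7 after quantile normalization. The medians were 0.06 and -0.10 on the log2 scale, against -0.01 over all rows, and a difference between the classes was not tested.

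H3F3B passed the adjusted p and not the fold limit, as did HIST1H2BD, which was chosen after its values were seen (10.8% of all rows passed the adjusted p alone). H3F3B had 338, 361 and 355 FPKM in KO samples, against 445, 429 and 491 FPKM in controls. All KO samples were lower, at 77.2% of the control mean, with a log2 fold change of -0.37 (SE 0.07, interval -0.53 to -0.21, limma adjusted p = 0.0292). HIST1H2BD, an H2B gene with an annotated transcript past the stem-loop, had 29.8, 31.1 and 26.9 FPKM in KO and 23.7, 22.1 and 22.4 FPKM in control samples. Here all KO samples were higher, at 129% of control (log2 fold change 0.35, SE 0.07, limma adjusted p = 0.0331). Neither pass was stable. Leaving out any 1 sample brought the limma adjusted p of H3F3B to between 0.0511 and 0.0972, and that of HIST1H2BD to between 0.0407 and 0.107, under 0.05 only without KO replicate 3. In 1 fit of all 12 samples they were 0.0068 and 0.311.

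The remaining replacement genes of MDA-MB-231 moved within their spread or near it. H2AFZ had 409, 457 and 422 FPKM in KO samples, all below the controls, with a log2 fold change of -0.17 that did not pass (limma adjusted p = 0.139). H2AFY (192 ± 9.04 FPKM in KO) and H3F3A (76.9 ± 2.70 FPKM) also lay wholly below their controls without passing. H1F0, with 122, 111 and 108 FPKM, lay wholly above, with a log2 fold change of 0.16 and a limma adjusted p of 0.177. KO means were 198 ± 7.90 FPKM for H2AFV, 169 for H2AFX, 37.5 ± 2.97 for H2AFJ and 58.4 ± 2.86 for H1FX (SD, n = 3), and 8.45 ± 0.907 for H3F3AP4 and 0.0333 ± 0.0115 for H2AFY2. Their samples overlapped those of the controls. Wholly separated rows were 2 of 23 higher (HIST1H2BD and H1F0) and 4 of 23 lower (H2AFY, H2AFZ, H3F3A and H3F3B), against 16.6% and 19.4% of all rows.

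The clustered genes with the highest levels did not pass in MDA-MB-231. HIST1H1C had 66.4, 57.8 and 54.4 FPKM in KO samples, and HIST1H2BK 136, 140 and 143 FPKM, with log2 fold changes of -0.06 (interval -0.27 to 0.14) and 0.15 (interval -0.07 to 0.37). HIST1H2AC had 20.1, 20.2 and 19.9 FPKM, inside the wider range of its controls (log2 fold change 0.24, interval -0.16 to 0.63). Low clustered rows had KO means of 4.96 (HIST1H2BC), 4.62 (HIST2H2BA), 4.28 (HIST1H2BJ), 3.96 (HIST1H1E), 3.79 (HIST1H2AM) and 3.03 FPKM (HIST2H2AC). As a sum, the clustered rows had 269 to 276 FPKM in KO and 235 to 266 FPKM in control samples, and the replacement rows 1581 to 1693 and 1758 to 1937 FPKM. Clustered rows made up 14.2% of the histone FPKM in the middle KO sample and 12.5% in the middle control sample, and the KO samples, up to 14.8%, did not overlap the controls, which ran from 10.8% to 13.1%. In MDA-MB-468 the share was 4.87% to 6.82% in KO and 4.88% to 6.75% in control samples. These sums weigh H3F3B, H2AFZ and HIST1H2BK most and were not tested.

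**Figure D4:**
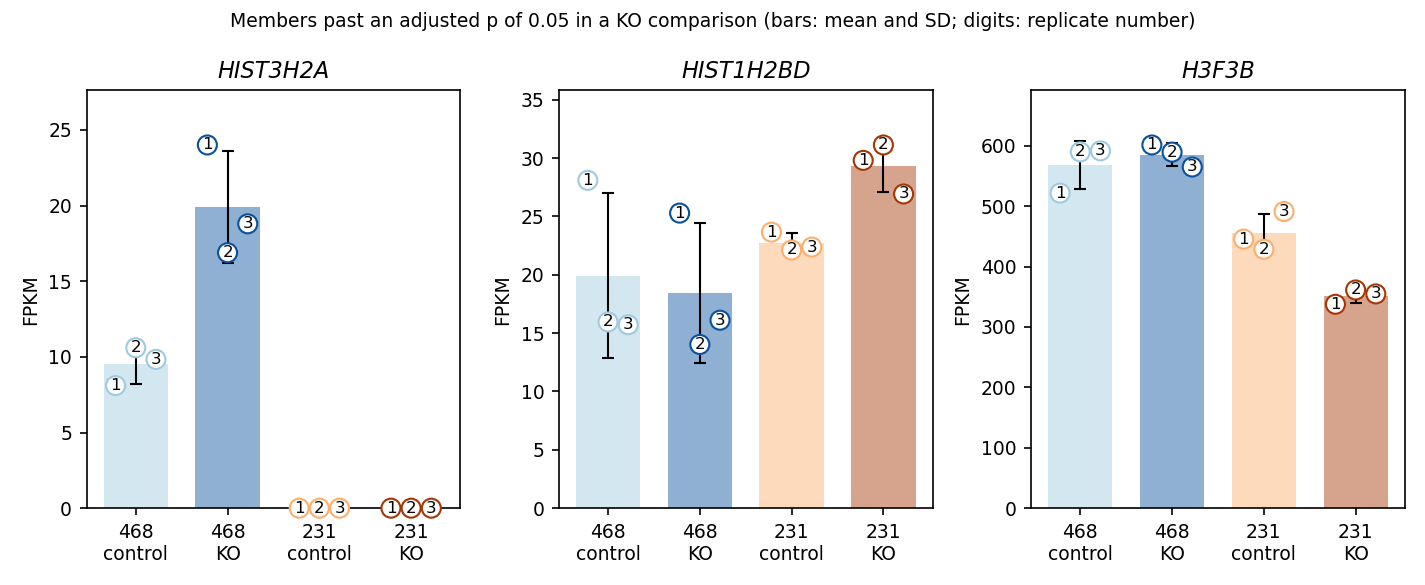
FPKM of HIST3H2A, HIST1H2BD and H3F3B in each group, bars giving the mean and SD (n = 3) and digits the replicate number of each sample. HIST3H2A was separated between KO and control in MDA-MB-468 and listed at 0 in MDA-MB-231, while HIST1H2BD and H3F3B were separated in MDA-MB-231 and overlapped in MDA-MB-468.

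**Figure D5:**
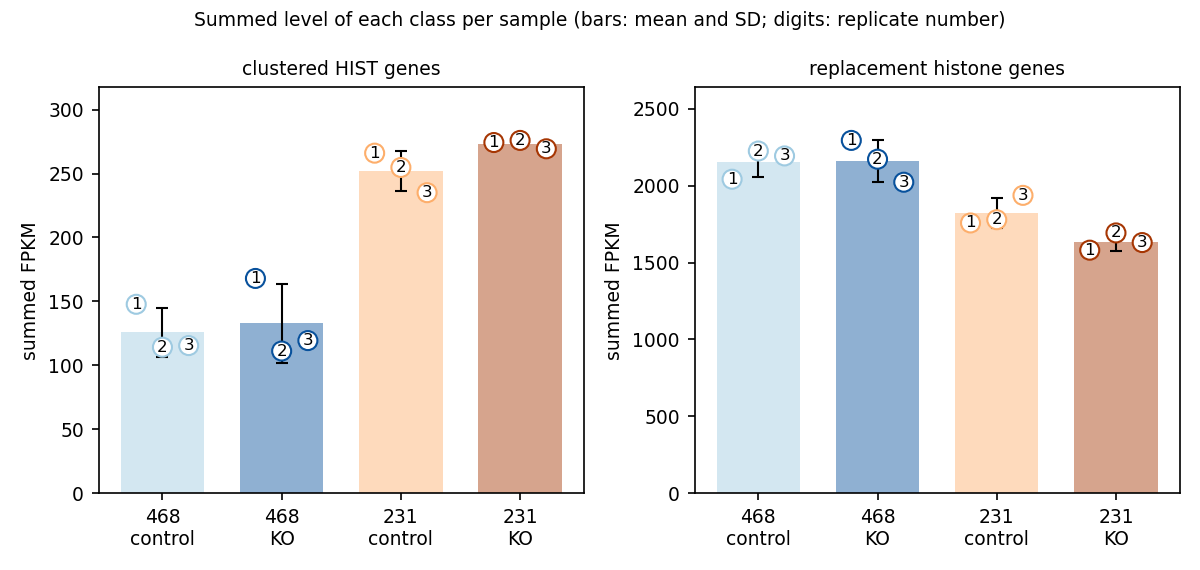
Summed FPKM of the 12 clustered and the 11 replacement rows in each sample, bars giving the mean and SD (n = 3) and digits the replicate number. Clustered sums were higher in MDA-MB-231 than in MDA-MB-468 samples, and in MDA-MB-231 the replacement sums of KO samples (1581 to 1693) lay below those of controls (1758 to 1937).

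Whether the KO change differed between the lines was tested as the interaction in 1 limma fit of all 12 samples, which called 8.71% of all rows (4.29% higher, 4.41% lower). HIST3H2A is among these rows, but as it was listed at 0 in all MDA-MB-231 samples, its fitted difference of 0.98 on the log2 scale is its change in MDA-MB-468 alone and is no test of a difference between the lines. No replacement row was called (0 by limma, with 1 at an unadjusted p under 0.05). That row, H3F3B, differed by 0.42 (SE 0.10, limma adjusted p = 0.0228), within the fold limit, and by the block its adjusted p was 0.0506. HIST1H2BD differed by -0.45, with a limma adjusted p of 0.347 and of 0.0357 with the block. For the other 20 rows the interaction did not pass the adjusted p in either fit.

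Genes that act on histones were followed in lists of their own. 27 of 31 genes for transcription and 3' end processing of histone mRNA were rows of the table, and 36 of 38 histone chaperone and deposition genes, and 48 of 49 S phase and replication genes. In MDA-MB-468 KO, 0 of these rows were called by limma, with 5, 4 and 5 (18.5%, 11.1% and 10.4%) at an unadjusted p under 0.05, against 25.1% of all rows, and medians of 0.03, 0.05 and 0.03 on the log2 scale. In MDA-MB-231 KO, 0, 0 and 1 were called and 5, 11 and 21 (18.5%, 30.6% and 43.8%) had an unadjusted p under 0.05, against 3.70% of all rows called and 31.2% at that p, with medians of -0.03, -0.05 and -0.06. The called gene was E2F2, an S phase transcription factor (log2 fold change 0.59, SE 0.08, limma adjusted p = 0.0182). SLBP, which binds the stem-loop, had mean log2 values of 5.92 in control and 5.97 in KO samples of MDA-MB-468, and of 6.30 and 6.32 in MDA-MB-231.

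Between the control lines 10 of 27, 15 of 36 and 25 of 48 rows of the lists were called, lower shares than the 64.1% of all rows. Of the mRNA processing list 7 rows were higher in MDA-MB-468 and 3 lower, and the 5 with the largest log2 fold change were NFYA (-1.46), NFYC (1.39), NFYB (1.23), CASP8AP2 (0.97) and TUT1 (0.93). NFYA, NFYB and NFYC encode the subunits of NF-Y, the factor that binds CCAAT. CASP8AP2 encodes FLASH, which acts in histone mRNA 3' end processing, and TUT1 a terminal uridylyltransferase. Of the chaperone list 5 were higher and 10 lower, with the largest log2 fold changes in NAP1L1 (-1.61), YEATS4 (-1.19), RBBP4 (1.18) and ASF1A (1.12) among rows above 0 in both lines. UBN1, a subunit of the HIRA complex that deposits H3.3, was listed at 0 in all MDA-MB-468 samples and had a mean log2 value of 4.16 in control MDA-MB-231 samples, so that no fold change is given. Of the S phase list 8 were higher and 17 lower, led by E2F2 (2.43), UHRF1 (-1.36), POLE2 (-1.31), RPA2 (-1.12) and RRM2 (1.04).

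RNAs that lack a poly(A) tail were followed as a list, and 9 of 37 listed were rows of the table. As the others are outside the filtered table, how much such RNA reached the libraries cannot be read from it. The summed FPKM of the 9 rows ran from 361 to 567 in control and from 471 to 835 in KO samples of MDA-MB-468. In those of MDA-MB-231 it ran from 334 to 850 and from 369 to 751. RN7SL1 and RN7SL2 weigh most in these sums. The groups overlapped in each line and between control lines. 1 of the 9, MALAT1, a nuclear RNA with a triple helix at its end, was called in MDA-MB-231 KO (log2 fold change 0.71, SE 0.13, limma adjusted p = 0.0331) and in the interaction (-0.90, limma adjusted p = 0.0186), and 0 of the 9 in MDA-MB-468 KO, where 0 had an unadjusted p under 0.05. Of the markers, CDH1 rose in MDA-MB-231 KO (0.54) near the floor, with mean log2 values of 0.33 in control and 0.87 in KO samples. CD14 rose there (1.18), from 0.79 to 1.39 FPKM in control to 2.65 to 4.90 FPKM in KO samples. In MDA-MB-468 CD14 ran from 46.1 to 52.9 FPKM in control and from 20.8 to 63.2 FPKM in KO samples. CAV1 had mean log2 values of 4.33 in control and 5.76 in KO samples of MDA-MB-468 and was not called. The part of these markers in the histone values was not tested.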

How the data were processed

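RNA of 12 samples was measured, 3 for each genotype of either line. The authors used Trimmomatic for trimming, STAR for alignment to hg19 and RSEM for expression, removed genes with a low average FPKM or SD, and deposited log2(FPKM + 1) values of 11529 rows. In the table the smallest mean FPKM was 1.07 and the smallest SD 1.00. The annotation behind the gene values is not given in the sources used here. Depth is unknown. 18 rows carry a date in place of a symbol and were kept unnamed.

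The members and gene lists were chosen with earlier results of these data known. Rows were found by symbol and matched to current names in RefSeq (23 of 23). Each comparison was fitted on all rows with limma 3.58.1 (lmFit, eBayes without trend, two-sided) in R 4.3.3. A row was called where its log2 fold change exceeded 0.5 in size and its Benjamini-Hochberg adjusted p was under 0.05. The KO comparisons and the comparison of controls share their control samples. Fits were tested on simulated data. The replicate number comes from the sample titles. Deviations of same-numbered samples from their group means correlated at 0.254, 0.161 and 0.119 in MDA-MB-468, and at -0.0543, 0.0741 and -0.115 in MDA-MB-231. The block is therefore given beside those KO results of MDA-MB-468 that are shown by sample. For the p numbers 26 and 27, shared by samples of other replicate numbers there, the correlations were -0.232 and 0.029.

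Per-sample values are given for members called on KO or in the interaction and for the highest member of each family and class, group values for all replacement genes, and up to 5 called genes of other lists per comparison. Stem-loops and positions came from GRCh37 and GENCODE 44 with Python 3.11.15 and pysam 0.24.0, promoters from RefSeq tables. Alternatives were a pseudocount of 0.1, only rows with a mean log2 value over 2, an intensity trend, scaling to the 75th percentile, quantile normalization, no fold limit, the block, 1 fit of all samples and leaving out each sample.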

Additional observations from a re-analysis of the deposited data

Results flagged for a closer look

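H3F3B was the 1 histone gene above 0 in both lines whose change on SMARCA4 KO differed between them at an adjusted p under 0.05, by the interaction of 1 limma fit of all 12 samples. The difference was 0.417 on the log2 scale (MDA-MB-468 minus MDA-MB-231, limma adjusted p = 0.0228), with a log2 fold change of 0.05 in MDA-MB-468 and of -0.37 in MDA-MB-231, where 3 of 3 KO samples were below every control. It is under the fold limit, so that the gene was not called, and its adjusted p ran from 0.0133 to 0.0506 (with the block) over 6 other settings and from 0.0239 to 0.0572 over the fits without 1 sample.

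The same interaction gave HIST3H2A a value of 0.984, but the gene was listed at 0 in all MDA-MB-231 samples, so that no change could be read there and no difference between the lines is shown. Its change in MDA-MB-468 alone lost its call with the block (limma adjusted p = 0.082) and in 5 of 6 fits without 1 sample.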

How the results depend on the processing

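The clustered count on KO in MDA-MB-468 was 1 and fell to 0 with rows of a mean log2 value over 2, which removed HIST3H2A, and with the replicate block or the p number block, and ran from 0 to 1 without 1 sample. In MDA-MB-231 the counts of 0 became 1 clustered and 1 replacement row without a fold limit. Between control lines the clustered count of 9 fell to 2 with the filter, which kept 5 clustered rows, and the replacement count of 6 became 10 without a fold limit. In the interaction the clustered count of 1 (HIST3H2A, at 0 in MDA-MB-231) fell to 0 with the filter, and the replacement count of 0 became 1 without a fold limit. Over all rows, 247 calls in MDA-MB-468 became 537 in 1 fit of all samples, 432 without a fold limit, 0 with the p number block (chosen after seeing the data; smallest adjusted p 0.127, with 2477 rows at an unadjusted p under 0.05) and 0 to 474 without 1 sample (0 without control replicate 2 or KO replicate 2). The 426 calls in MDA-MB-231 became 0 with the replicate block (smallest adjusted p 0.052, with 3126 rows at an unadjusted p under 0.05), 1248 without a fold limit and 99 to 311 without 1 sample. The 1004 calls of the interaction became 1699 without a fold limit, and scaling to the 75th percentile turned its split from 495 higher and 509 lower to 394 and 610. In MDA-MB-231 same-numbered samples also share a p number (10 to 12), but no source says what either number marks and their deviations did not correlate; HIST1H2BD and H3F3B had adjusted p of 0.0983 and 0.094 with the block. The block changed no other call of a histone gene. No scaling moved the median of all rows by over 0.1. Of 92 values, the sign changed for 9 in some setting and for 28 without some sample, 0 of them called. Unknown depth limits what can be said of rows near 0. Causes were not tested.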
